A study of Mus musculus with 6 samples.

Results

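The genes described here, whose proteins belong to the non-compact parts of the peripheral myelin sheath, are Mag, Gjb1, Gjc3, Cldn19, Ncmap, Plekhb1 and Cnp. They were chosen by symbol, as proteins of Schmidt-Lanterman incisures, paranodal loops and the periaxonal membrane, with earlier results of these data known. All 7 symbols were found among the 24015 gene symbols of the count files. RNA was sequenced from sciatic nerves of mice at postnatal day 14, with 3 control and 3 Rnf40ΔSC libraries, each made per the study's methods from a pool of 3 nerves. Control mice had the genotype Rnf40 fl/fl. Rnf40ΔSC mice carried the same floxed alleles together with a Dhh::Cre transgene, which deletes Rnf40 in the Schwann cell lineage and leaves other cells of the nerve with an intact gene. Both groups were on a mixed 129SvJ/C57Bl/6J background per the labels. Rnf40 is part of the E3 ligase that attaches ubiquitin to histone H2B, and the comparison asked how nerve gene expression differs when Schwann cells lack it.

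A myelinating Schwann cell wraps its membrane around an axon, and most of that membrane is pressed into compact layers. Cytoplasm remains in the loops beside the node, in the incisures that cross the sheath and in the collar around the axon, and there the membrane layers are joined to each other by gap, tight and adherens junctions. The best known gene of this compartment is Gjb1, which codes for connexin 32 and is mutated in the X-linked form of Charcot-Marie-Tooth neuropathy.

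The promoters are described first. RefSeq windows of 300 bases (250 before to 50 after an annotated start, GRCm38.p6) were found for all 7 members at 15 starts. Motifs searched on both strands were GCGNGGGCG, the long form bound by EGR proteins, its shorter relatives GTGGGCG and also GTGGGNG, where every GTGGGCG match is also a GTGGGNG match, and the words ACAAAG or else ACAATG, which resemble the sequence bound by SOX proteins. The long form was in 5.55% of 32851 promoters and in 0 of the 15 member windows. GTGGGCG was in 7.97% of promoters and in 3 of the 15 member windows, those of Gjb1 and Cldn19. GTGGGNG was in 31.6% of promoters and in 9 of the 15 member windows, ACAAAG in 18.7% of promoters and in 6 of 15, and ACAATG in 12.6% of promoters and in 1 of 15, a window of Gjb1. Windows of 1 gene can overlap, as those of Cldn19 do, and share their matches.

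Windows are shown for the members with GTGGGCG, Gjb1 (chrX:101383482-101383781, plus strand) and Cldn19 (chr4:119255191-119255490, plus strand), for Mag (chr7:30914814-30915113, minus strand) as a member with other matches and for Gjc3 (chr5:137963049-137963348, minus strand) as the member that changes least. They were chosen after the matches had been seen. Capitals mark GTGGGNG and also ACAAAG and also ACAATG on either strand, and each window is RefSeq sequence of GRCm38.p6 from 5′ to 3′ on the gene's strand.
Gjb1: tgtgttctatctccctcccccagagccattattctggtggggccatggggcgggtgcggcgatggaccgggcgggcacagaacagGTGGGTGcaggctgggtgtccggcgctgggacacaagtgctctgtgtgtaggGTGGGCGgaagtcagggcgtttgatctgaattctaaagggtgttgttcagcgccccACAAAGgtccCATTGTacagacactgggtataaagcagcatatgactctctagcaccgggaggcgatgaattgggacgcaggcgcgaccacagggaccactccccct
Cldn19: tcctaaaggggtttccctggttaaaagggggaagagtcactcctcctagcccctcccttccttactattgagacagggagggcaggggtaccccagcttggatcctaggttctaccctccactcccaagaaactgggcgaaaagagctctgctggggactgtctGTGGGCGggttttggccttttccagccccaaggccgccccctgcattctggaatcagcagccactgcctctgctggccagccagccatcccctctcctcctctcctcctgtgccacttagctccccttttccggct
Mag: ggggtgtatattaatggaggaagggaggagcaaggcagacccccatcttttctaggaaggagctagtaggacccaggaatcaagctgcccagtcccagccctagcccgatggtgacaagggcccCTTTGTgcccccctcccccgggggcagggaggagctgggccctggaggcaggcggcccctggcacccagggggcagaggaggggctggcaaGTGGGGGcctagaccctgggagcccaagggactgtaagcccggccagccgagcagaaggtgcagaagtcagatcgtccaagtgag
Gjc3: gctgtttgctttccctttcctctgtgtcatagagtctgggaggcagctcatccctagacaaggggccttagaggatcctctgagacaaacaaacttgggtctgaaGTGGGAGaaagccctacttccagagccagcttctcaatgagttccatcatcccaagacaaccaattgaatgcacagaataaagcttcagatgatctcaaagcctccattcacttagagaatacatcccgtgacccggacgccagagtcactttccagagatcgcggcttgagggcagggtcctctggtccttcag

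Of the 4 RefSeq starts of Gjb1, 2 held no match, 1 held a single ACAAAG and the last is the window shown. In it, GTGGGCG began 113 bases before the start, ACAAAG 57 bases before it and the reverse complement of ACAATG 47 bases before it, so that the last 2 face each other with 4 bases between them. In the Cldn19 window GTGGGCG began 86 bases before the start. The Mag window held GTGGGNG and the reverse complement of ACAAAG, at 35 and 126 bases before the start, and the Gjc3 window held GTGGGNG alone, 145 bases before the start. A match describes letters in a window and is no evidence of binding, the start used in nerve was not measured, and the fold changes were not tested against the motifs.

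The files held 1317167, 1992622 and 2468765 counted reads in control replicates 1, 2 and 3, and 2184268, 1459387 and 2186710 in Rnf40ΔSC replicates 1, 2 and 3. Levels are given as CPM, which is counts-per-million of the library size after scaling by trimmed means of M values (TMM), and 1 read then stood for 0.414 to 0.823 CPM. Rnf40 itself was at 67.5, 65.5 and 73.6 CPM in the control libraries and at 46.8, 46.9 and 48.8 CPM in the Rnf40ΔSC libraries. Its 3 Rnf40ΔSC values all lay below the control values, with a log2 fold change of -0.54 (SE 0.14) and an adjusted p of 0.0024 by edgeR's quasi-likelihood test, or -0.27 and 0.12 with library totals in place of TMM. These are counts of the whole gene, so transcripts that lack the floxed exons are included, as is Rnf40 from cells without Cre. Its partner Rnf20 was higher in all 3 Rnf40ΔSC libraries, by 0.44 on the log2 scale (SE 0.13, edgeR adjusted p 0.010), or by 0.71 with library totals, although that adjusted p rose to 0.087 without control replicate 3 and to 0.057 without Rnf40ΔSC replicate 1.

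Some libraries stand apart from the others of their group. The most abundant of the 15 skeletal muscle genes listed here was Myh4, except in Rnf40ΔSC replicates 2 and 3. The 15 genes summed to 4883, 3718 and 2763 CPM in the control libraries and to 100.5, 259 and 3453 CPM in Rnf40ΔSC replicates 1, 2 and 3. Rnf40ΔSC replicate 3 thus held muscle reads at the level of the controls, whereas replicates 1 and 2 held few, and replicate 3 lay apart from them on the second principal component (20.4, against -10.5 and -3.95; 12.9% of the variance). On the first component (75% of the variance) it lay nearer the controls, at 13.6 against 28.1 and 27.1, with the controls at -24.6, -23.2 and -20.9. The ribosomal precursor Rn45s took 5.41% of the reads in Rnf40ΔSC replicate 1 and between 1.95% and 2.95% in the other 5 libraries. The Y-linked genes (Ddx3y, Uty, Kdm5d and Eif2s3y) had 0 reads in sum in control replicate 1 and in Rnf40ΔSC replicate 2, a floor of 3 counts or 2.47 and 1.87 CPM for each gene, and between 246 and 405 reads in the other 4 libraries. Each group therefore had 1 library without detected Y-linked reads. Member results are given with all libraries and with each library left out.

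The inner, axon-facing membrane carries Mag, a sialic acid-binding adhesion protein of the Siglec family that contacts the axon surface. Mag was at 435, 521 and 413 CPM in the control libraries and at 127, 93.7 and 119 CPM in the Rnf40ΔSC libraries. The highest Rnf40ΔSC value was well below the lowest control value. Mag fell by 2.00 on the log2 scale (95% interval -2.22 to -1.78, SE 0.11, edgeR adjusted p 7e-17), and was lower in 3 of 3 Rnf40ΔSC libraries. It was also the member with the widest spread between replicates, with a coefficient of variation of 12.5% in the control and 15.3% in the Rnf40ΔSC group.

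Gjb1 and Gjc3 are connexins, the subunits of gap junction channels. Gjb1 was at 102, 120.4 and 109 CPM in the control libraries and at 32.6, 30.6 and 28.1 CPM in the Rnf40ΔSC libraries. Every Rnf40ΔSC library was below every control library, and Gjb1 fell by 1.86 (95% interval -2.14 to -1.58, SE 0.14, edgeR adjusted p 1.2e-13). Gjb1 is X-linked, and the libraries without Y-linked reads, at 102 CPM in control replicate 1 and 30.6 CPM in Rnf40ΔSC replicate 2, did not stand apart from the others of their groups.

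Gjc3, which codes for connexin 29 on the innermost Schwann cell membrane and in incisures, was at 1084, 1159 and 1058 CPM in the control libraries and at 730.0, 692 and 669 CPM in the Rnf40ΔSC libraries. The groups did not overlap here either. Gjc3 fell by 0.66 (95% interval -0.82 to -0.49, SE 0.082, edgeR adjusted p 4.6e-08), the smallest change among the 7 members. Counted within each library, and so without any scaling between libraries, Gjb1 reads amounted to 9.42%, 10.4% and 10.3% of Gjc3 reads in controls, against 4.47%, 4.42% and 4.21% in Rnf40ΔSC libraries. The share was thus lower in each Rnf40ΔSC library than in each control library.

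Cldn19 is the claudin of the tight junctions that seal adjacent myelin layers. Its levels were 1895, 2089 and 1992 CPM in the control libraries and 500.2, 492 and 552 CPM in the Rnf40ΔSC libraries, and the replicates of each group lay close together. Cldn19 fell by 1.95 (95% interval -2.12 to -1.78, SE 0.083, edgeR adjusted p 1.2e-20), and ranked 11 by p among the 11371 genes tested. Ncmap codes for a small membrane protein of non-compact myelin; it was at 1025, 1128 and 1081 CPM in the control libraries and at 279, 252 and 268 CPM in the Rnf40ΔSC libraries. Here too the groups were far apart, and Ncmap fell by 2.01 (95% interval -2.19 to -1.84, SE 0.088, edgeR adjusted p 3.3e-20), close to the change of Mag. Ncmap reads amounted to 54.1%, 54.0% and 54.3% of Cldn19 reads in controls, against 55.9%, 51.1% and 48.6% in Rnf40ΔSC libraries, so that the ratio of the pair overlapped between the groups.

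Plekhb1 codes for a pleckstrin homology domain protein, and Cnp for the cyclic nucleotide phosphodiesterase that is anchored to the membranes of cytoplasm-filled myelin channels. Plekhb1 was at 967, 1135 and 1034 CPM in the control libraries and at 340.5, 352 and 406 CPM in the Rnf40ΔSC libraries, a fall of 1.51 (95% interval -1.70 to -1.33, SE 0.091, edgeR adjusted p 2.9e-16). Cnp was at 1424, 1659 and 1455 CPM in the control libraries and at 690.4, 604 and 729 CPM in the Rnf40ΔSC libraries, and decreased by 1.16 (95% interval -1.34 to -0.99, SE 0.087, edgeR adjusted p 1.3e-13). For both genes all 3 Rnf40ΔSC libraries lay below the controls, and Rnf40ΔSC replicate 3 was the highest of its group. The exons of Cnp share 154 bases with those of Dnajc7 on the opposite strand in the GENCODE vM1 annotation of NCBI build 37, and because the strand setting of the counting is not given in the sources used here, reads in that stretch cannot be told apart. Dnajc7 moved the other way, by 0.35 on the log2 scale (SE 0.10, edgeR adjusted p 0.0075, or 0.061 without control replicate 3). No other member shared exon bases with a gene in the count files.

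**Figure D1:**
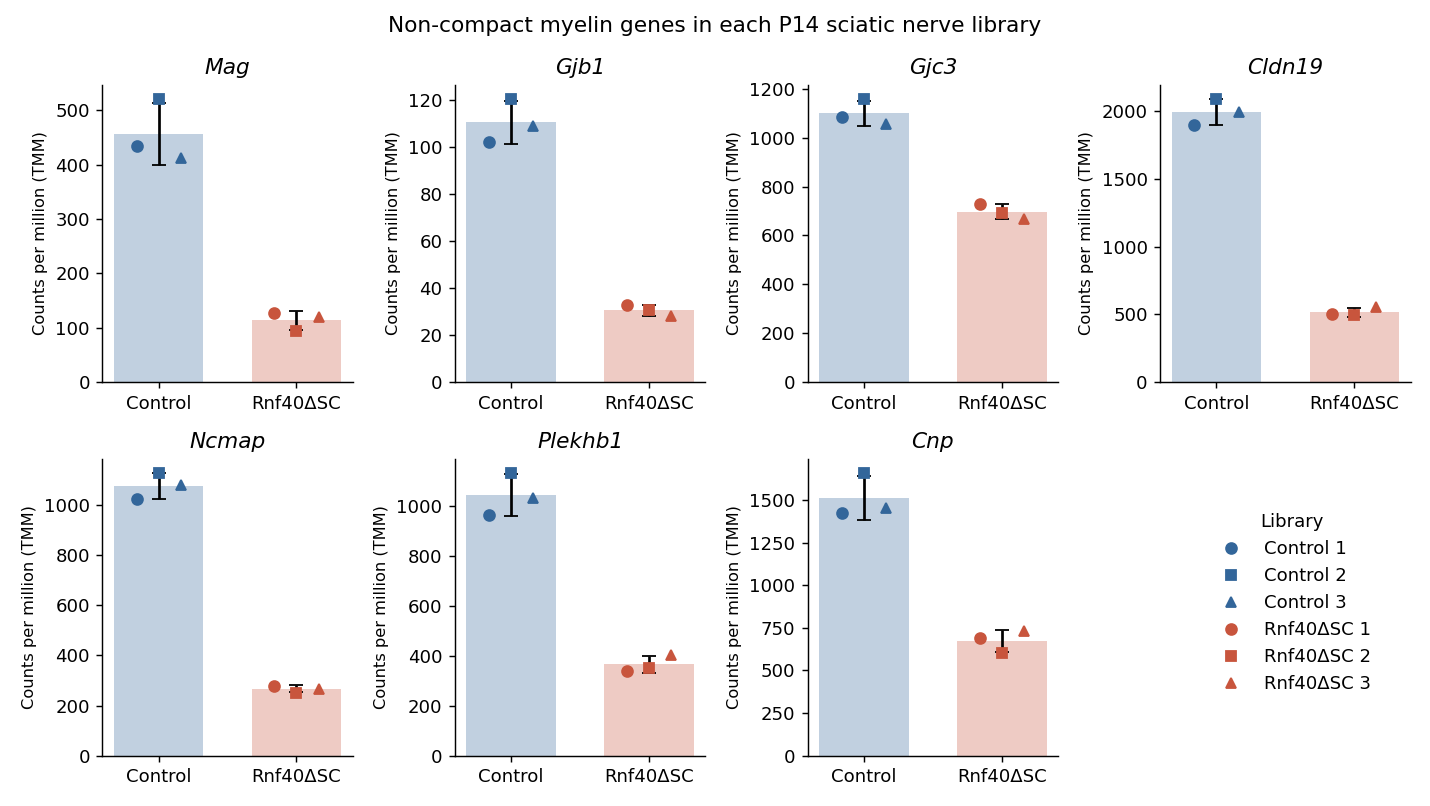
TMM-scaled CPM of the 7 genes in each library, with bars for the group mean and error bars for the SD (n = 3 per group) on axes that start at 0. In each panel the 3 Rnf40ΔSC libraries sit below the 3 control libraries; for Gjc3 they span 669 to 730.0 CPM against 1058 to 1159 CPM.

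A gene was called when its edgeR adjusted p (Benjamini-Hochberg over 11371 genes tested) was at most 0.05, its log2 fold change at least 0.8 in size and its mean normalised count at least 20. By this rule 6 of the 7 members were called lower, against 5.05% of all genes tested (574 genes), while 3.73% (424 genes) were called higher. Gjc3 was the member not called, since its fold change did not reach 0.8. At the adjusted p alone all 7 members passed as lower, against 16.2% of genes tested, and all 7 had no overlap between groups with Rnf40ΔSC below, against 21.6%. The members' median log2 fold change was -1.86, next to -0.0026 over all genes tested. Because the members were chosen with earlier results of these data known, these comparisons with all genes are a description and no test. With library totals in place of TMM factors the median of all genes moved to 0.27, the split of calls changed from 57.5% lower to 20.5% lower, and the members' fold changes were nearer 0, from -1.75 for Ncmap to -0.89 for Cnp and -0.39 for Gjc3, still with 6 called. Rnf40ΔSC replicate 3 was the only library of its group with muscle reads at the level of the controls. Without it the fold changes were -2.02 for Mag, -1.79 for Gjb1, -0.62 for Gjc3, -2.00 for Cldn19, -2.01 for Ncmap, -1.59 for Plekhb1 and -1.21 for Cnp. That setting does not remove the muscle difference. It sets controls with muscle reads against Rnf40ΔSC libraries with few, and the muscle genes' median moved from -1.43 to -4.40. A lower level in whole nerve can mean fewer cells of a type or less RNA in each cell, and these cannot be told apart in bulk libraries.

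**Figure D2:**
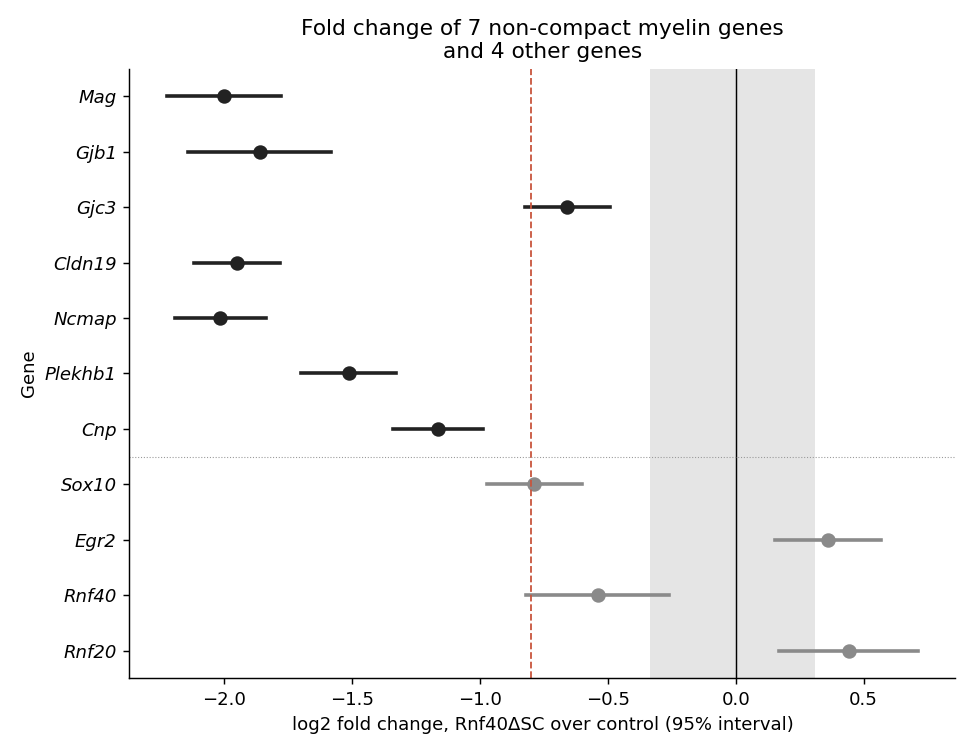
log2 fold changes with 95% intervals (n = 3 per group) for the 7 members, above the dotted line, and for Sox10, Egr2, Rnf40 and Rnf20, below it. The grey band holds the middle 50% of all genes tested (-0.33 to 0.31), the dashed line marks the -0.8 limit, and Gjc3 is the member drawn to the right of that limit.

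Levels of different genes were compared per kilobase of exon in GENCODE vM1, where Ncmap is listed as A330049M08Rik. In control nerves the median level was 485 CPM per kb for Ncmap, 467 for Cldn19, 400 for Cnp, 308 for Gjc3, 291 for Plekhb1, 179 for Mag and 63.8 for Gjb1. The ranges of Ncmap and Cldn19, of Cldn19 and Cnp, and of Gjc3 and Plekhb1 overlapped, whereas Mag and Gjb1 each lay apart. In Rnf40ΔSC nerves the order became Gjc3 (197 CPM per kb), Cnp (189.7), Ncmap (120.4), Cldn19 (117), Plekhb1 (99.0), Mag (48.9) and Gjb1 (17.9). The ranges of Gjc3 and Cnp overlapped at the top, as did those of Ncmap and Cldn19 and those of Ncmap and Plekhb1, so Gjc3 ranked 4 in control nerves and level with Cnp at the head in Rnf40ΔSC nerves. When the longest transcript replaced the full exon length, Cnp (238 CPM per kb) rather than Gjc3 (197) came first in Rnf40ΔSC nerves, and Gjc3 ranked 5 in control nerves. Mag and Gjb1 were last with either length.

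To set the members against other genes of the same cells without scaling between libraries, each was divided within its library by the sum of 5 Schwann cell lineage genes (Sox10, S100b, Erbb3, Cdh19 and Adgrg6), a ratio chosen after the values had been seen. Their summed level was 1267, 1441 and 1397 CPM in the control libraries and 823, 792 and 766 CPM in the Rnf40ΔSC libraries, lower in each of the latter. Relative to these genes Ncmap decreased by 1.23 on the log2 scale, Mag by 1.23, Cldn19 by 1.17, Gjb1 by 1.07, Plekhb1 by 0.73 and Cnp by 0.38, all 6 without overlap between groups. Gjc3 was higher against this sum, by 0.13, with log2 ratios of -0.23, -0.31 and -0.40 in the control and -0.17, -0.19 and -0.20 in the Rnf40ΔSC libraries, but its sign depended on the denominator. Divided by each of the 5 genes alone, Gjc3 was higher against Cdh19 (0.56), S100b (0.23) and Sox10 (0.13), and lower against Erbb3 (-0.057) and Adgrg6 (-0.25; Gpr126 in the files), with overlapping groups for Sox10 and Erbb3. Cnp was higher against Cdh19 (0.056, overlapping) and lower against the other 4, with overlapping groups for S100b (-0.28). The other 5 members were lower against each gene, with overlapping groups for Plekhb1 over Cdh19 (-0.29). These ratios are a description and were not tested.

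**Figure D3:**
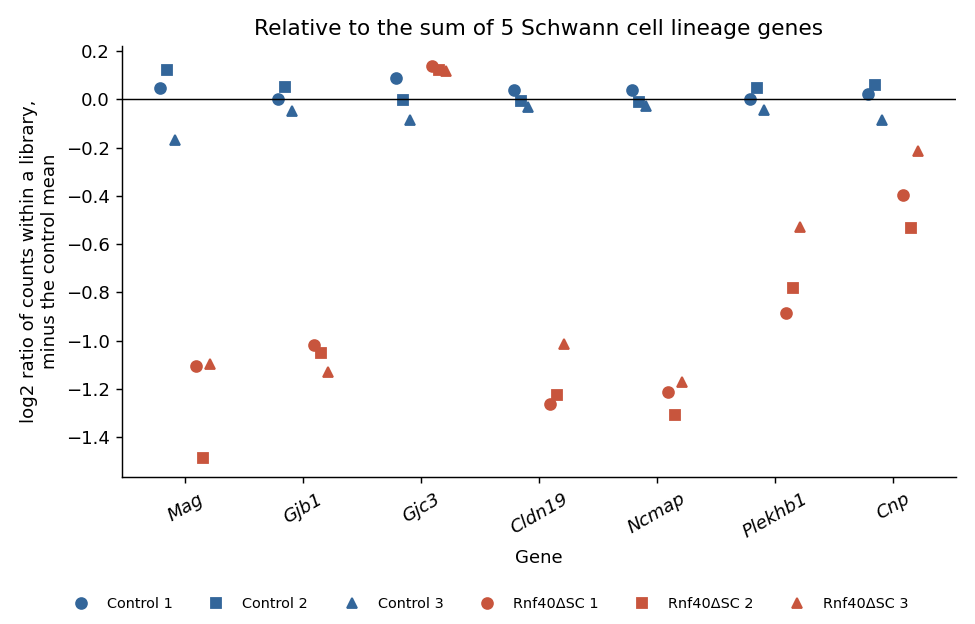
log2 ratio of each member's counts to the sum of 5 Schwann cell lineage genes within the same library, after subtracting the control mean; points are libraries. The Rnf40ΔSC points of 6 members lie below the controls, by 1.23 for Ncmap and by 0.38 for Cnp, whereas Gjc3 lies 0.13 above, although it is lower against Erbb3 alone (-0.057) or Adgrg6 alone (-0.25), which are not drawn.

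The relatives and partners of the members were followed in lists of genes. Of 20 connexin genes 14 had a read and 8 were tested. Gjb1 was the only connexin called and the list's median was -0.51, or -0.24 with library totals; Gjc3 was the most abundant by counts. Of 24 claudin genes 7 were tested, with a median of -0.94, and 3 were called lower. These were Cldn19, Cldn5 (-1.12, SE 0.28, edgeR adjusted p 0.0018) and Cldn12 (-0.94, SE 0.13, edgeR adjusted p 5.5e-07). Cldn12 is not called with library totals (-0.67), and Cldn5 is also in the endothelial marker list. Cldn5 had no more than 47 reads in any library. At an edgeR adjusted p of at most 0.05, 5 claudins were lower, Cldn1 (-0.28) among them but not with library totals (-0.012), and 1 higher. The latter, Cldn3, named after its values were seen, had 1, 2 and 0 reads in the control and 14, 10 and 12 reads in the Rnf40ΔSC libraries (3.16, edgeR adjusted p 0.00037), below the limit on the mean count. Among 9 Siglec genes 3 were tested and Mag was the one called, and of the Plekhb pair Plekhb1 was called and Plekhb2 (-0.59) was not. Plekhb2 was at -0.37 (edgeR adjusted p 0.16) without control replicate 1 and at -0.33 (edgeR adjusted p 0.17) with library totals. Its adjusted p was also above 0.05 without Rnf40ΔSC replicate 2 or 3.

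Lists of proteins that anchor or accompany such junctions held genes that moved in both directions. Of 13 tight junction partners 10 were tested, with a median of -0.10 (-0.16 to -0.025 with 1 library left out), which turned to 0.17 with library totals; none was called lower by edgeR (1 at an unadjusted p under 0.05, 0 by DESeq2) and 2 were called higher. These were Marveld3, with 6, 4 and 3 reads in the control and 43, 34 and 52 reads in the Rnf40ΔSC libraries (2.98, SE 0.37, edgeR adjusted p 4.2e-08, but below the limit on the mean count without any 1 Rnf40ΔSC library), and Jam3 (0.98, SE 0.10, edgeR adjusted p 9e-10). Tjp1, the most abundant partner over all libraries but below Jam3 in each Rnf40ΔSC library, was higher by 0.47 and not called. Of 13 adherens junction genes 11 were tested with a median of -0.51, or -0.24 with library totals, and edgeR called 0 of them (9 at an unadjusted p under 0.05, 0 by DESeq2). Of the 11, 5 were lower and 3 higher at an edgeR adjusted p of at most 0.05, short of the fold limit. The most abundant, Ctnna1, was higher by 0.56, and by 0.83 with library totals, where it met the call rule.

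Of 19 scaffold genes of incisures and paranodes 17 were tested, and their median was -0.014 (-0.065 to 0.013 with 1 library left out), or 0.26 with library totals. None was called lower by edgeR (5 at an unadjusted p under 0.05, 0 by DESeq2), although 4 were lower and 3 higher at an edgeR adjusted p of at most 0.05. The lowest of them, Nfasc, named after its values were seen, changed by -0.78 (SE 0.086, edgeR adjusted p 2.9e-09) without overlap between groups, just short of the fold limit, which it passed without control replicate 1 (-0.81) or Rnf40ΔSC replicate 3 (-0.80). Ezr was called higher, at 142, 140.1 and 129 CPM in the control and 361, 405 and 329 CPM in the Rnf40ΔSC libraries (1.42, SE 0.10, edgeR adjusted p 3.4e-14). Epb4.1l2, the most abundant of them, changed by -0.18 (edgeR adjusted p 0.074) and by 0.084 with library totals. Among 6 periaxonal adhesion genes the 2 called lower were Mag and Cadm4, and 1 was called higher. Cadm4, the Schwann cell nectin-like protein that binds axonal partners, was at 436, 512 and 460 CPM in the control and 147, 134 and 144 CPM in the Rnf40ΔSC libraries (-1.72, SE 0.097, edgeR adjusted p 5.1e-17). Its paralogue Cadm1 was at 93.0, 91.0 and 97.3 CPM in the control and 227, 235 and 231 CPM in the Rnf40ΔSC libraries (1.30, SE 0.10, edgeR adjusted p 4.6e-13). Each Rnf40ΔSC library was thus below every control library for Cadm4 and above every control library for Cadm1. Cadm3, the most abundant gene of that list, was at 0.26, and its adjusted p was 0.026 with all libraries and 0.223 without control replicate 3, and it was also above 0.05 without control replicate 1 or without Rnf40ΔSC replicate 1.

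**Figure D4:**
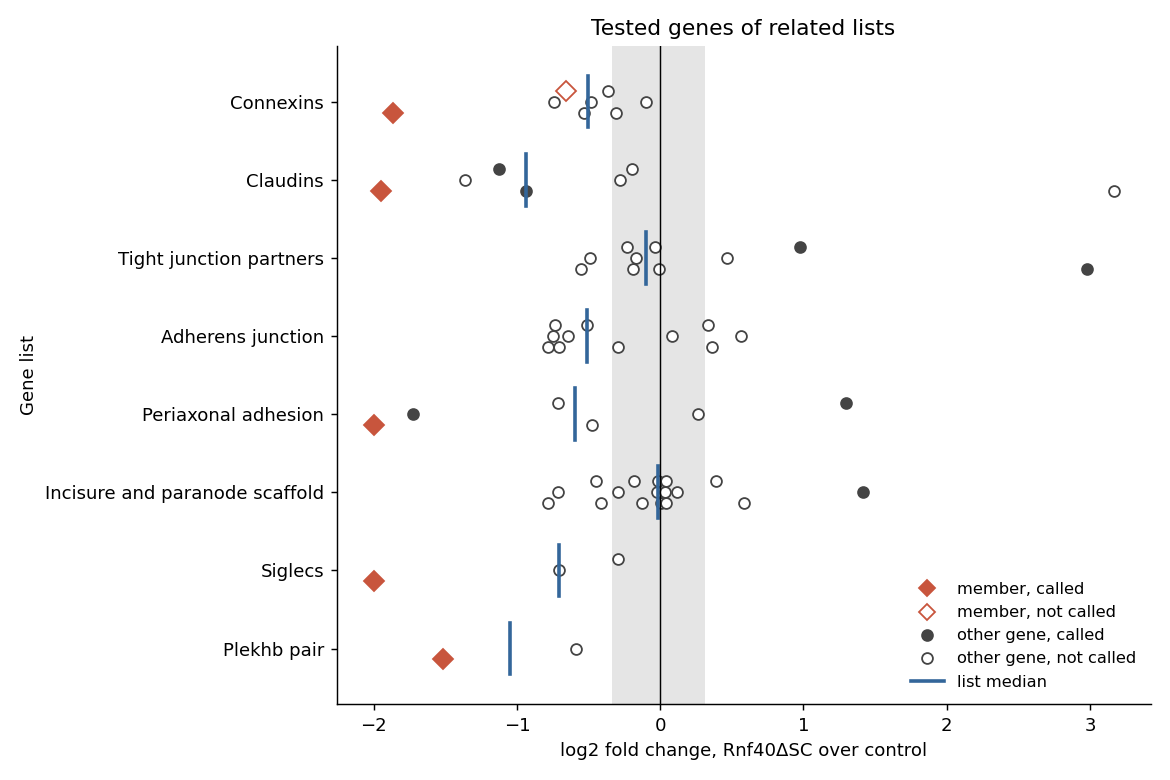
log2 fold changes of the tested genes in 8 lists, with members as diamonds, filled symbols for called genes, blue bars for list medians and the grey band for the middle 50% of all genes tested (-0.33 to 0.31). Connexins, claudins, Siglecs and the Plekhb pair each have a member at their lower end, while the scaffold and tight junction partner lists have medians of -0.014 and -0.10, which become 0.26 and 0.17 with library totals.

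Among 12 regulators of myelination the 2 called were both higher, Pou3f1 (2.05) and Pou3f2 (1.82). Tead1 (0.37) was the most abundant over all libraries, but lay below Sox10 in each control library and below Pou3f1 in each Rnf40ΔSC library. Egr2, which activates many myelin genes, was at 245, 267 and 227 CPM in the control and 308, 273 and 365 CPM in the Rnf40ΔSC libraries. All 3 Rnf40ΔSC values were above the controls, by 0.36 (SE 0.10, edgeR adjusted p 0.0058, or 0.087 without control replicate 3), and the estimate was 0.63 with library totals and 0.25 without Rnf40ΔSC replicate 3. Sox10 was at 496, 547 and 562 CPM in the control and 326, 297 and 307 CPM in the Rnf40ΔSC libraries, lower by an estimate of -0.79 (SE 0.091, edgeR adjusted p 8.8e-09), just short of the call limit, which it passed without control replicate 1 (-0.84) or Rnf40ΔSC replicate 1 (-0.81) but not with library totals (-0.52).

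The position of the members in the genome gave no shared neighbourhood. Mag (NCBI build 37, chr7:31684202-31699851) and Plekhb1 (chr7:107791406-107810928) lie on chromosome 7, Cldn19 (chr4:118928019-118935043) and Ncmap (chr4:134925491-134954142) on chromosome 4, Gjc3 (chr5:138395037-138404187) on chromosome 5, Cnp (chr11:100436218-100453043) on chromosome 11 and Gjb1 (chrX:98571717-98580968) on the X chromosome.

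Genes with the most similar profiles were sought by Euclidean distance between log2 CPM values centred on each gene's mean over the 6 libraries, among 9336 tested genes with a mean normalised count of at least 20. Cldn19 and Ncmap were near each other by this measure, at a distance of 0.16: Ncmap was the nearest gene to Cldn19, followed by Neat1, and Cldn19 was second nearest to Ncmap, after 5930403L14Rik. The 2 genes nearest to Gjb1 were L1cam (0.092) and Ogn, and those nearest to Mag were Aldoc (0.25) and 5930403L14Rik. For Gjc3 they were Cdh1 (0.071) and Kif1c, whose log2 fold changes were -0.64 and -0.61. Plekhb1 was nearest to Mapk8ip1 and Il16, and Cnp to Iqsec1 and Sema4g. These distances describe 6 libraries that fall into 2 groups, and they carry no test.

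Marker lists give RNA levels of genes typical of cell types and do not count cells. In the study's stainings at this age, Sox10-positive cells made up a similar share of the nerve in both genotypes. Total cells per section were slightly more numerous and Iba1-positive macrophages were more frequent in Rnf40ΔSC nerves. How the RNA levels below relate to those cell counts was not tested. Oligodendrocytes also express members of this group, Mag, Gjc3, Plekhb1 and Cnp among them. However, of 9 oligodendrocyte markers 0 were tested, and Olig1 and Olig2 had 0 reads in all 6 libraries. The most abundant, Mobp, had at most 14 reads in a library. The list summed to 5.76, 6.22 and 11.6 CPM in the control and 2.15, 6.87 and 2.07 CPM in the Rnf40ΔSC libraries, next to 1424 CPM or more for Cnp in controls. Of the 5 Schwann cell lineage genes all had reads, Sox10 was the most abundant, and Cdh19 (-1.20) and S100b (-0.89) were called lower. S100b fell short of the fold limit with library totals (-0.62) and without Rnf40ΔSC replicate 3 (-0.78).

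Lists of other cells of the nerve had negative medians, with few genes called. At an edgeR adjusted p of at most 0.05, next to 16.2% of all genes tested, 8 of 9 fibroblast, 6 of 10 endothelial, 7 of 11 macrophage, 5 of 8 pericyte and smooth muscle, 2 of 2 perineurial and 4 of 8 adipocyte genes were lower, and 0 were higher. The perineurial count includes Cldn1, whose adjusted p was above 0.05 under several alternatives given below. With library totals these medians were nearer 0, at -0.22 for fibroblast, -0.27 for endothelial, -0.19 for macrophage, -0.27 for pericyte and smooth muscle, -0.20 for perineurial and -0.39 for adipocyte genes, next to 0.27 for all genes. The 9 fibroblast genes, led by Col3a1 (-0.49), had a median of -0.49 and summed to 54630, 53330 and 57764 CPM in the control and 40756, 39040 and 38622 CPM in the Rnf40ΔSC libraries, with Pi16 (-0.90, or -0.63 and not called with library totals) called. The 10 endothelial genes, led by Cdh5, had a median of -0.54 and summed to 837, 736 and 828 CPM against 538, 537 and 631 CPM, with Cldn5 called. The 12 macrophage genes, led by Csf1r, had a median of -0.45 over 11 tested and summed to 530.3, 470 and 503 CPM against 348, 351 and 351 CPM. Of these Cd68 (-0.81) was called by edgeR, but not by DESeq2 or with library totals (-0.54), and its adjusted p was 0.117 without control replicate 3. Cd68 also fell short of the fold limit with the replicate block (-0.79) and without Rnf40ΔSC replicate 2 (-0.72). In these 3 lists each Rnf40ΔSC sum was below each control sum.

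The 8 pericyte and smooth muscle genes, led by Pdgfrb, had a median of -0.54 and summed to 1184, 874 and 1018 CPM in the control and 644, 639 and 766 CPM in the Rnf40ΔSC libraries; edgeR called 0 of them (5 at an unadjusted p under 0.05, 0 by DESeq2). The perineurial genes, led by Cldn1, had a median of -0.47 over 2 tested of 3 and summed to 414, 491 and 463 CPM against 383, 322 and 335 CPM, with 0 called by edgeR (2 at an unadjusted p under 0.05, 0 by DESeq2). Cldn1 (-0.28, edgeR adjusted p 0.033) had overlapping groups. Its adjusted p was 0.94 with library totals (-0.012) and 0.087 by DESeq2. It was also above 0.05 without control replicate 2 or 3 and without Rnf40ΔSC replicate 2 or 3. The 8 adipocyte genes, led by Fabp4, had a median of -0.66 and summed to 1308, 966 and 1630.5 CPM against 1001, 928 and 762 CPM, so that the groups overlapped, and Plin1 (-1.31) and Cfd (-0.95) were called, the latter not with library totals (-0.69) and with an adjusted p of 0.061 without Rnf40ΔSC replicate 2 and 0.080 without replicate 3.

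Proliferation and neuronal genes were listed as well. The 5 proliferation genes, led by Mki67, summed to 83.2, 87.6 and 95.5 CPM in the control and 128, 132 and 156 CPM in the Rnf40ΔSC libraries, with a median of 0.63 over 4 tested, of which edgeR called 0 (2 at an unadjusted p under 0.05, 0 by DESeq2). At an edgeR adjusted p of at most 0.05, 2 were higher and 0 lower, short of the fold limit. With library totals 2 were called, Mki67 (0.91) among them. The 8 neuronal genes were led by Stmn2 in each control library and by Snap25 in each Rnf40ΔSC library. They stayed low in every library, at 20.6, 27.7 and 25.9 CPM against 33.9, 30.6 and 25.2 CPM in sum with overlapping groups, and had a median of 0.34 over 3 tested (0.17 to 0.46 with 1 library left out, 0.61 with library totals) and 0 called by edgeR (1 at an unadjusted p under 0.05, 0 by DESeq2). Stmn2 changed by -0.72 (edgeR adjusted p 0.14). It was at -1.19 (adjusted p 0.043) without Rnf40ΔSC replicate 1 and at -0.42 (adjusted p 0.44) without Rnf40ΔSC replicate 2. Snap25, named after its values were seen, was at 3, 6 and 8 reads in the control and 23, 13 and 23 reads in the Rnf40ΔSC libraries (a fold of 2.82, SE 0.40 on the log2 scale, edgeR adjusted p 0.0038), below the limit on the mean count. The part of any of these cell types in the members' fall was not tested.

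Skeletal muscle is the list that differs most between libraries of 1 group. Of its 15 genes 14 were tested, with a median of -1.43, or -4.40 without Rnf40ΔSC replicate 3, and edgeR called 0 with all libraries (0 at an unadjusted p under 0.05, 0 by DESeq2). Of the members, Cldn19, Plekhb1 and Cnp were highest within the Rnf40ΔSC group in replicate 3, and Mag, Gjb1, Gjc3 and Ncmap were not. The 7 members together summed to 2700 and 2517 CPM in Rnf40ΔSC replicates 1 and 2, where muscle genes were at 100.5 and 259 CPM, and to 2770 CPM in replicate 3, where they were at 3453 CPM, against 6932, 7812 and 7142 CPM in the controls. The part of muscle reads in the members' values was not tested. Leaving Rn45s out of the counts moved no member's log2 fold change by more than 0.01.

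**Figure D5:**
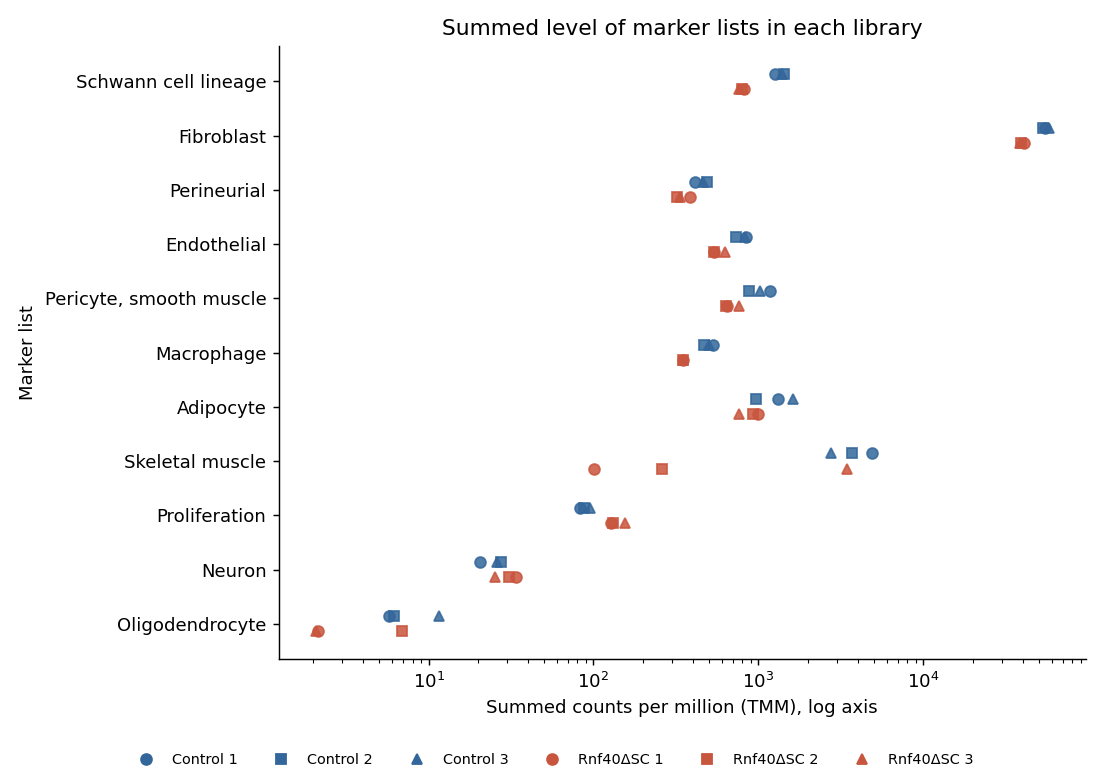
Summed TMM-scaled CPM of 11 gene lists in each library on a log axis, with controls above and Rnf40ΔSC libraries below each line. Skeletal muscle genes lie at 100.5 and 259 CPM in Rnf40ΔSC replicates 1 and 2 and at 2763 CPM or more in the other 4 libraries, and oligodendrocyte genes stay at or below 11.6 CPM.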

How the data were processed

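Total RNA from pooled P14 sciatic nerves was sequenced by the authors, who deposited raw counts per gene symbol from HTSeq, 1 file per library, after alignment to mm9 with TopHat per the study's methods; the submitters' processing notes also list Bowtie2 2.1.0 and mm10. The labels name a NEB Next Ultra kit and a 129SvJ/C57Bl/6J background, the methods a NEXTFLEX directional kit and C3H × C57Bl/6J. The gene annotation and strand setting are not given in the sources used here. Deposited counts of 3 control and 3 Rnf40ΔSC libraries were fitted across all genes with edgeR 4.0.16 in R 4.3.3 (filterByExpr, TMM, robust quasi-likelihood F test, no covariates, Benjamini-Hochberg over all genes tested). Standard errors were derived from the F statistic and cover 6 pools. Ratios within a library used a pseudocount of 0.5. DESeq2 1.42.0 was an alternative, with other scalings, other filters, a replicate block and each library left out. Members and lists were chosen with earlier results of these data known; older symbols were matched through RefSeq synonyms. Named genes were the members, the genes of each list that were called (up to 3 per direction) or most abundant over all libraries, Egr2, Sox10, Rnf40, Rnf20, the 2 nearest profiles of each member and genes that overlap a member. Exceptions are marked. The fit was tested on simulated data. A planned ratio, a gene list and some genes of that rule are not reported here.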

Additional observations from a re-analysis of the deposited data

How the results depend on the processing

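Each member's log2 fold change kept its sign and an edgeR or DESeq2 adjusted p of at most 0.05 under 13 alternatives (91 of 91 values, highest adjusted p 0.00016, for Gjc3 with library totals), and 6 of 7 members were called under each. The alternatives were DESeq2, RLE and total-count scaling, no filter, at least 10 counts in every library, a replicate block, Rn45s left out (chosen after seeing the data, as was the lineage ratio) and each library left out. Leaving out 1 library gave -2.08 to -1.89 for Mag, -1.91 to -1.79 for Gjb1, -0.69 to -0.62 for Gjc3, -2.00 to -1.92 for Cldn19, -2.05 to -1.97 for Ncmap, -1.59 to -1.45 for Plekhb1 and -1.21 to -1.09 for Cnp.

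In place of 574 genes called lower and 424 called higher, total-count scaling called 263 and 1020, which follows from its shift of all genes by 0.27; no limit on the fold gave 1741 and 1552 by construction. Leaving out 1 library gave 553 to 701 lower and 377 to 475 higher.

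The labels number replicates 1 to 3 in both groups. Deviations of same-numbered libraries correlated at -0.095, -0.015 and -0.062 over genes, so the numbers were not used as pairs; with the replicate block 573 genes were called lower and 416 higher, and Gjc3 was at -0.66.

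The ratios to 5 Schwann cell lineage genes kept their sign with 1 library left out, from 0.082 to 0.17 for Gjc3. With 1 lineage gene as the denominator, also chosen after seeing the data, 3 of 35 reversed. These were Gjc3 over Erbb3 (-0.057) or Adgrg6 (-0.25) and Cnp over Cdh19 (0.056). Erbb3 and Adgrg6 fell less than Gjc3, and Cdh19 fell more than Cnp. Among 51 other named genes (without the Y-linked genes, Rn45s and Mobp) 1 value reversed, Epb4.1l2 with library totals (0.084), which is the shift of all genes by 0.27 added to -0.18; 23 lost and 2 gained an adjusted p of 0.05. With library totals Cd68, Cfd, Cldn12, Pi16 and S100b fell short of the fold limit and lost their call, and Ctnna1 and Mki67 gained one. At these library totals 6 of 20 connexins and 7 of 24 claudins had reads but too few to be tested.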
